A study of Mus musculus with 12 samples.

Results

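The genes described here build and regulate the cytoskeleton of newborn neurons, and 9 were chosen by symbol: Tubb3, Map2, Mapt, Map1b, Dclk1, Stmn2, Ank2, Ank3 and Enc1. Every region of the 5mC and 5hmC tables whose nearest gene carried 1 of these symbols was taken, whatever its level. This gave 55 of 55085 peaks of 5-methylcytosine (5mC) and 49 of 47478 peaks of 5-hydroxymethylcytosine (5hmC), near 6 of the 9 genes. Ank3 alone held 30 of the 5mC peaks and 35 of the 5hmC peaks, Ank2 held 10 and 2, Tubb3 5 and 4, Enc1 5 and 4, Stmn2 3 and 3, and Dclk1 2 and 1. Map2, Mapt and Map1b had no peak under these symbols. Map2 and Map1b were listed under the older symbols Mtap2 and Mtap1b, and these peaks are given apart from the 55 and 49.

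The data come from the mouse cortex at E14.5, from embryos with a Btg2 RFP and a Tubb3 GFP reporter allele, both of which all groups carried. Proliferative progenitors (PP) were sorted as RFP-/GFP- cells, differentiative progenitors (DP) as RFP+/GFP- cells and newborn neurons as GFP+ cells, with or without RFP. Pull-downs with an antibody for 1 of the marks (MeDIP for 5mC, hMeDIP for 5hmC) were made on a pool in which a barcode kept each cell type's DNA apart, so that each of the cell types has a pull-down and an input sample per mark, 12 samples in all. The tables hold 1 mean level per peak and cell type, as the log2 of normalized reads. These levels carry neither the spread between replicates nor the depth. The authors' own comparisons per peak stand beside them and were not used here, so the differences below are given without a test and were not set against the replicate error.

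Microtubules are polymers of alpha and beta tubulin that fill the growing axon and dendrites of a neuron, and proteins bound along them set their stability and spacing. Ankyrins tie membrane proteins to the spectrin and actin network underneath the membrane. In DNA, 5mC is written by DNA methyltransferases at CpG dinucleotides and is oxidized to 5hmC by Tet enzymes, a step on the way to unmodified cytosine.

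RefSeq sequence of the promoters is shown first. A window spans 250 bases before to 50 bases after an annotated start, 300 bases in all. The 9 windows matched for 5 of the genes (Tubb3, Map2, Map1b, Dclk1 and Ank2) covered no peak. Windows for Ank3, Enc1, Stmn2 and Mapt were not available, so the promoters of these genes were not examined. A window without a peak was the usual case. Among 32851 mouse windows, 1.11% overlapped a 5mC peak and 1.26% a 5hmC peak. Given 5' to 3' in GRCm38.p6 with every CpG in capitals, the windows are those of Tubb3 (chr8:123411303-123411602, plus strand), of Map1b (chr13:99516553-99516852, minus strand) and of the Ank2 start to which the tables measured distances (chr3:126998403-126998702, minus strand).
Tubb3: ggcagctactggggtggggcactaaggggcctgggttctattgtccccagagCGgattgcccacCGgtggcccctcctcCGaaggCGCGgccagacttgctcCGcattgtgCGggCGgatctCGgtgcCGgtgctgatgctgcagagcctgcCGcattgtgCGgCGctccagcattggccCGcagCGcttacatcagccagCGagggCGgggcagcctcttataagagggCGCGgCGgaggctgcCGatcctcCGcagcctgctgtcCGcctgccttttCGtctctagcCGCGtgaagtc
Map1b: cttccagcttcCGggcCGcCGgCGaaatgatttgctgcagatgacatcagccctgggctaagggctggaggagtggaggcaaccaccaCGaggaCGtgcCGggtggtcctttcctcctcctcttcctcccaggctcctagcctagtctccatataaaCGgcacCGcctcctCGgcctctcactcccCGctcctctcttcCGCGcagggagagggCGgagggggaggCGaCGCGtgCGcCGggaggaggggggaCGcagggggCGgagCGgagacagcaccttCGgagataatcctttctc
Ank2: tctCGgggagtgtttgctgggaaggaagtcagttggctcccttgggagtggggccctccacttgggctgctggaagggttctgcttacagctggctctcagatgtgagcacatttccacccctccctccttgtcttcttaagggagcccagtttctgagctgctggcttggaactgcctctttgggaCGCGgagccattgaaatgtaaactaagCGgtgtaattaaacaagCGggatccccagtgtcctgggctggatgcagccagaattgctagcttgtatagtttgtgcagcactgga
The Tubb3 window held 26 CpGs and the Map1b window 23, against a median of 7 (quartiles 3 and 20) over all windows, whereas the Ank2 window held 5. The CpG count of the 9 windows ran from 2, at another Ank2 start, to 37 at Map2. The E-box CAGCTG, searched on both strands, was in 2 of the 9 windows and in 16.3% of all windows, and CAGATG, likewise counted on either strand, was in 2 and in 17.2%. Matches of these 2 motifs cannot overlap. The printed Ank2 window held 1 match of each, the Map1b window held 1 of CAGATG, and that of Tubb3 held neither. The nearest 5mC and 5hmC peaks to the Tubb3 window lay 701 and 724 bp away.

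A single region among these peaks was also a target of the study's dCas9-Tet1 experiments, in which a Cas9 without nuclease activity carries the catalytic domain of Tet1 to a locus. Apart from Dchs1, the paper picked its target loci mainly because they were highly methylated. They did not need to show loss of 5mC with gain of 5hmC. The target at chr13:97246240-97246462 (mm10) lies in Enc1 and shares 62 bp with the 5mC peak that differed most in this report. Its 2 guides are shown with the E-box CAGCTG in capitals.
guide 1: cacaaccaacaaatggacca
guide 2: ctggtttcccagcaCAGCTG
The E-box filled bases 15 to 20 of guide 2, counted from its 5' end, and neither guide held a CpG.

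Changes are differences in log2 level, the later cell type minus the earlier, from which the median difference of all peaks of that mark was subtracted. Each comparison was centred on its own median, so the changes over single steps need not add up to that from PP to neurons. This centring mattered for 5mC, whose median difference over all peaks from PP to neurons was -0.17 on the log2 scale. For 5hmC the median difference was -0.08, although its median level was 4.72 in PP and 4.75 in neurons. A peak was called lower or higher when the centred change reached 1.5-fold, or 0.585 on the log2 scale. The share of all peaks that passed the same limit is the background for each count.

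From PP to neurons, 12 of the 55 5mC peaks were called lower (21.8%, against 10.2% of all 5mC peaks) and 1 was called higher (1.82%, against 5.0%). The 5hmC peaks showed the opposite balance. Of 49, 19 were called higher (38.8%, against 22.1% of all 5hmC peaks) and 2 lower (4.08%, against 7.71%). The median change was -0.20 for 5mC, within the quartiles of all peaks of -0.27 and 0.22, and 0.13 for 5hmC, within quartiles of -0.28 and 0.48. Without Ank3, 5 of 25 5mC peaks were lower and 7 of 14 5hmC peaks higher. At a 2-fold minimum 5 of the 55 5mC peaks were lower (9.09%, against 4.0% of all), and among peaks whose highest level was above the median 4 of 30 were (13.3%, against 6.32% of all such peaks). Most peaks near these genes thus stayed inside the 1.5-fold limits, and the counts rest on a part of them.

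The 2 steps of the lineage were unequal. From PP to DP, 3 of the 5mC peaks were lower (5.45%, against 5.44%) and 2 higher (3.64%, against 4.6%), close to the background. For 5hmC, 7 were higher (14.3%, against 11.2%) and 0 lower (against 4.68%), but 6 of the 7 were peaks of Ank3, and without that gene 1 of 14 was higher (7.14%). From DP to neurons, 10 of the 5mC peaks were lower (18.2%, against 9.36%) and 0 higher (against 5.12%). The first of these counts was 17 without centring (30.9%, against 15.5%), 5 at a 2-fold minimum (9.09%, against 3.3%), 4 of 25 without Ank3 (16.0%) and 3 of 30 among the higher levels (against 5.55% of all such peaks). From DP to neurons, 14 of the 5hmC peaks were higher (28.6%, against 16.5%) and 1 lower (2.04%, against 7.07%). The limit itself divided close values: the smallest change called from PP to neurons was 0.59 for 5mC and 0.62 for 5hmC in size, and the largest not called was 0.58 and 0.55.

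**Figure D1:**
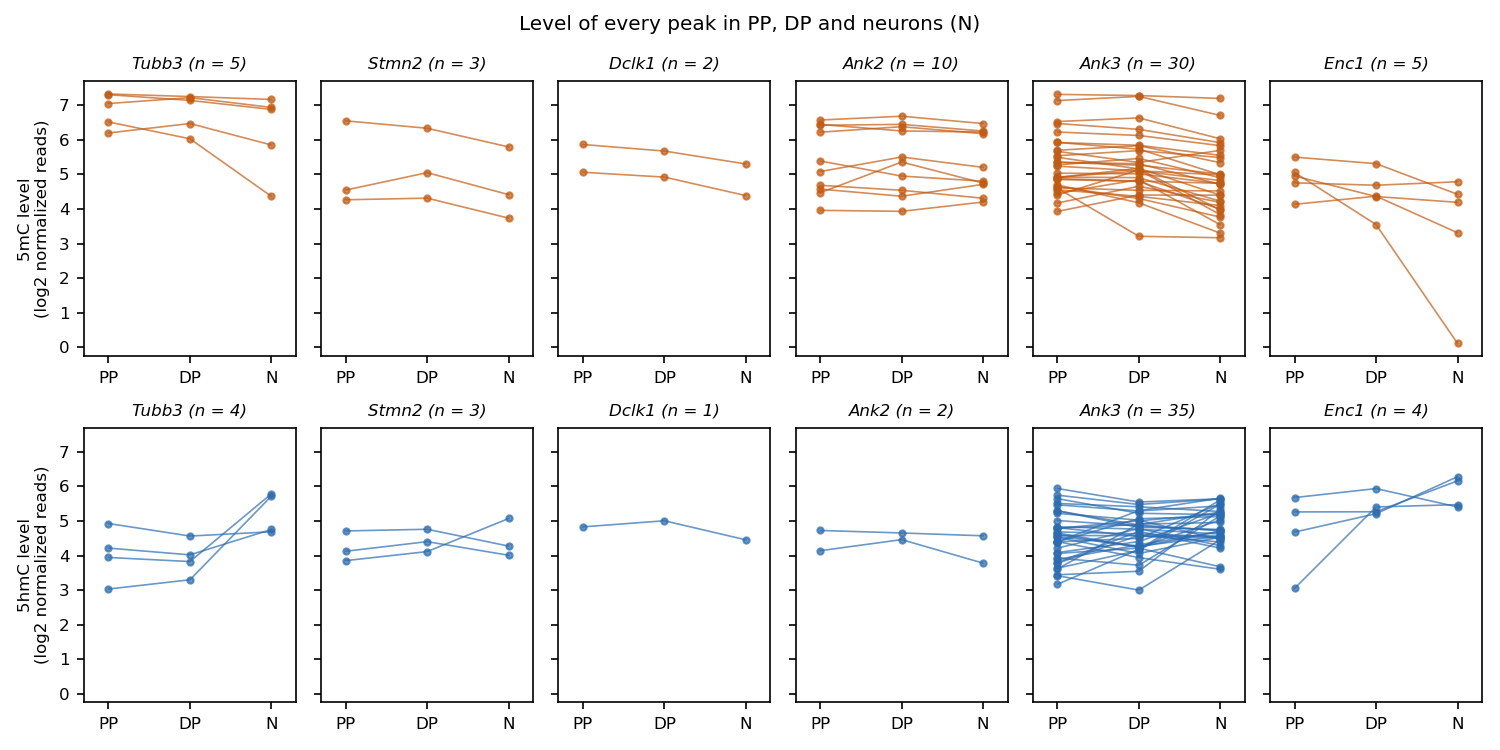
Level of each peak (log2 normalized reads, vertical axis) in PP, DP and neurons (N, horizontal axis) for the 6 genes with a peak, 5mC above and 5hmC below, with 1 line per peak and n the number of peaks; each point is the authors' mean, so no error can be shown. The Enc1 5mC line that ends at 0.11 in neurons and the upstream Tubb3 lines, 5mC ending at 4.36 and 5hmC at 5.72, stand out from nearly level lines at most other peaks.

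Tubb3 encodes the beta tubulin that is characteristic of neurons, and its promoter drove the GFP used to sort them. A pair of overlapping peaks just upstream of the gene carried its main change. The 5mC peak at chr8:123410483-123410602, 883 bp upstream of the start, had levels of 6.52, 6.03 and 4.36 in PP, DP and neurons. The 5hmC peak at chr8:123410458-123410579 had 3.03, 3.30 and 5.72 in PP, DP and neurons. On a linear scale 5mC went from 91.6 normalized reads in PP to 20.6 in neurons, and 5hmC from 8.17 to 52.7. The centred changes were -1.98 (3.95-fold) and 2.77 (6.83-fold). A lower change was seen at 0.995% of all 5mC peaks, and the 5hmC change was at percentile 97.5 of all 5hmC peaks. Most of both changes lay in the second step, -1.49 for 5mC and 2.44 for 5hmC from DP to neurons, after -0.48 and 0.27 from PP to DP.

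The other Tubb3 peaks separated the 2 marks. The 5mC peaks within the gene, 6720, 9363 and 10067 bp from the start, changed by -0.26, -0.18 and 0.01 between PP and neurons, and the peak behind it by 0.06. The 5hmC peak 9516 bp from the start, inside the gene (chr8:123420874-123421008), had levels of 3.94, 3.83 and 5.79 in PP, DP and neurons. Its change of 1.93 from PP to neurons stood beside -0.18 at the 5mC peak that ends just before it (chr8:123420707-123420868). At 7207 bp the 5hmC levels were 4.21, 4.02 and 4.75, a change of 0.62 just past the limit. The last, 14071 bp from the start and behind the gene, had 4.93, 4.56 and 4.69 and was not called. All 3 called 5hmC peaks of Tubb3 reached their highest level in neurons, and none was called between PP and DP.

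Enc1 encodes an actin-binding kelch protein of the nervous system, and it held the largest 5mC change of all members. The 5mC peak at chr13:97246401-97246619, inside the gene and 5404 bp from the start, had levels of 5.06, 3.55 and 0.11 in PP, DP and neurons. On a linear scale this was 33.3 normalized reads in PP and 1.08 in neurons. The level of 0.11 is the lowest in the neuron column and is shared by 38 peaks, so the change of -4.77 is a limit set by the scale, and 5mC may have been lower still. Only 0.0218% of all 5mC peaks had a lower change. The 5hmC peak that overlaps it by 94 bp (chr13:97246526-97246660) had 3.05, 5.40 and 5.47 in PP, DP and neurons. Its rise was nearly complete in DP, with a change of 2.36 from PP to DP and of 2.50 from PP to neurons. The 5mC peak changed by -1.50 in the first step and -3.26 in the second.

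Of the remaining Enc1 peaks, 3 for 5mC and 2 for 5hmC were called. The 5mC peaks at 4035 and 4582 bp, inside the gene, changed by -0.59 and -0.65, and the peak at 18450 bp, behind the gene, by -0.90. At 4034 bp the 5hmC peak had levels of 5.26, 5.26 and 6.16 in PP, DP and neurons, a change of 0.98. Behind the gene, at 18394 bp, 5hmC had 4.68, 5.21 and 6.28, a change of 1.68. The peaks that were not called were 5mC at -15778 bp (0.20) and 5hmC at 17583 bp (-0.19). Enc1 thus had 4 of 5 5mC peaks lower (80.0%, against 10.2% of all) and 3 of 4 5hmC peaks higher (75.0%, against 22.1% of all). Its 5mC share was the highest among the 6 genes, and its 5hmC share equalled that of Tubb3, with few peaks at either gene. The change of -0.59 at 4035 bp was the smallest 5mC change called. The timing also varied within the gene, since at 4035 bp the 5mC change fell in the first step (-0.59, then 0.01) and at 4582 bp in the second (0.24, then -0.88).

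Stmn2 encodes a stathmin that binds tubulin dimers and destabilizes microtubules in growth cones. Its 3 peaks of each mark lay inside the gene, and 1 was called. The 5hmC peak at chr3:8554832-8555011, 45394 bp from the start, had levels of 3.85, 4.11 and 5.07 in PP, DP and neurons, a change of 1.30. The 5mC peak under it (chr3:8554853-8555000) had 6.55, 6.33 and 5.79, a change of -0.58 that fell just short of the limit. The 5hmC peak nearest to the start, at 634 bp, changed by -0.03, and the one at 13206 bp by -0.36. The 5mC peaks at 32424 and 32764 bp changed by -0.36 and 0.04.

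Dclk1 encodes a doublecortin-like kinase that binds microtubules. None of its 3 peaks was called. The 5mC peak at 4660 bp, the nearest to the start, had levels of 5.06, 4.92 and 4.39 in PP, DP and neurons, a change of -0.50. The second 5mC peak, at 13467 bp, changed by -0.39. The 5hmC peak, 25219 bp upstream, had 4.83, 5.00 and 4.45, a change of -0.29, so that both marks were lower in neurons at this gene, each within the limit.

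Map1b encodes a microtubule-associated protein of growing axons, and Map2 one that is typical of dendrites. Under the symbol Mtap1b the tables held 2 5mC and 3 5hmC peaks, all inside the gene. The 5hmC peak at chr13:99478306-99478577, 38160 bp from the start, had levels of 1.502, 3.31 and 4.54 in PP, DP and neurons, a change of 3.12 that was split over both steps (1.81 and 1.25). Its PP level was low, at 2.83 normalized reads. A second 5hmC peak, at 13058 bp, changed by 1.196, and the third, at 46104 bp, by 0.23. The 5mC peak under the first of these had 5.20, 4.77 and 4.65, a change of -0.38. The other 5mC peak, at 44170 bp, had 4.87, 5.77 and 4.89, and was thus higher in DP (0.91) and lower again in neurons (-0.70). Map2, as Mtap2, had 2 5hmC peaks with changes of -0.57 (46333 bp upstream) and 0.27 (52123 bp). A 5mC peak within the RefSeq bounds of Map2, listed under Gm10558, changed by -0.63. Mapt, which encodes tau, an axonal microtubule-associated protein, had no peak of either mark within its RefSeq bounds on chromosome 11 and no value of expression listed.

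Ank2 encodes ankyrin B. Its 10 5mC and 2 5hmC peaks were measured from an internal start, and none was called between PP and neurons. The 5mC levels ran from 3.96 to 6.57 in PP and from 4.20 to 6.47 in neurons, and the changes from -0.41 to 0.45. The peak with the largest change, at 38728 bp, had 4.47, 5.36 and 4.75 in PP, DP and neurons, so that it was called higher in DP (0.89) but not in neurons. The 5mC peak nearest to the start, at 6594 bp, changed by 0.41. The 5hmC peaks, at 81568 and 95949 bp, changed by -0.28 and -0.07, and the first was called lower from DP to neurons (-0.66).

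The 5' part of Ank2 and the region upstream were listed as Gm4392, a RefSeq synonym of Ank2. Of its 12 5hmC peaks 4 were called higher (33.3%, against 22.1% of all) and 0 lower, and of its 14 5mC peaks 2 were called lower (14.3%, against 10.2%) and 1 higher (7.14%, against 5.0%). Within the RefSeq bounds of Ank2 these were 3 of 10 5hmC peaks higher and 2 of 12 5mC peaks lower, and the 5mC peak called higher lay outside. The 5hmC peak at chr3:127398440-127398577 had levels of 1.76, 3.32 and 5.37 in PP, DP and neurons, a change of 3.69, and the 5mC peak under it had 5.75, 5.96 and 5.04, a change of -0.53. This change in 5hmC exceeded that of every peak listed under a member's own symbol. It started from 3.38 normalized reads in PP, whereas the lowest PP value under a member's own symbol was 8.17. The 5mC peak with the lowest change, -0.91 at 13942 bp, had a 5hmC peak over it with 4.36, 4.31 and 4.29, a change of 0.01.

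Ank3 encodes ankyrin G, which organizes the axon initial segment. Its peaks were spread from 87413 bp upstream to 281429 bp downstream of the start. Of the 30 5mC peaks, 7 were called lower and 1 higher between PP and neurons (23.3% and 3.33%, against 10.2% and 5.0% of all). A change below 0 was seen at 22, on a scale centred so that the median of all peaks is 0. Of the 35 5hmC peaks, 12 were called higher and 2 lower (34.3% and 5.71%, against 22.1% and 7.71% of all). Within the gene 5 of 23 5mC peaks were lower (21.7%, against 10.6% of all peaks inside genes). There 11 of 30 5hmC peaks were higher (36.7%, against 26.7% of all inside genes). Upstream of it these were 2 of 7 (28.6%) and 1 of 5 (20.0%).

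The 2 largest 5mC changes under the Ank3 symbol lay upstream. The peak at chr10:69497668-69497877, 36451 bp upstream, had levels of 5.49, 5.16 and 3.97 in PP, DP and neurons, a change of -1.36. The peak 48707 bp upstream had 4.60, 3.21 and 3.17, a change of -1.26 that was complete in DP (-1.39). The peak at 133469 bp changed by -1.22 over both steps. The single 5mC peak called higher, at 160041 bp, had 3.93, 4.40 and 4.40, a change of 0.64. The 5mC peak nearest to the start, 6135 bp upstream, changed by 0.07.

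For 5hmC the largest change under the Ank3 symbol was at chr10:69636623-69636823, 102500 bp into the gene, with levels of 3.17, 4.18 and 5.61 in PP, DP and neurons. It rose in both steps, by 1.01 and 1.46, and its change from PP to neurons was 2.53. The peak at 115560 bp had 3.44, 3.54 and 5.33 and gained in the second step alone (0.11, then 1.81). By contrast the peak at 161915 bp had 3.61, 4.91 and 4.95 and gained in the first (1.30, then 0.07). The peak nearest to the start, at 1705 bp, had 4.09, 4.40 and 5.23, a change of 1.23. The 2 peaks called lower were at 77689 bp (4.40, 3.94 and 3.60) and 138333 bp (5.22, 5.02 and 4.46), with changes of -0.72 and -0.68. Another 28 5mC and 14 5hmC peaks within the RefSeq bounds of Ank3 were listed under Ccdc6, the gene with the nearest start. Of these 6 5mC peaks were lower (21.4%, against 10.2% of all) and 1 higher (3.57%, against 5.0%). For 5hmC 5 were higher (35.7%, against 22.1% of all) and 0 lower (against 7.71%). The highest 5hmC change among them, 2.77 at chr10:69986195-69986407, exceeded all those under the Ank3 symbol.

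**Figure D2:**
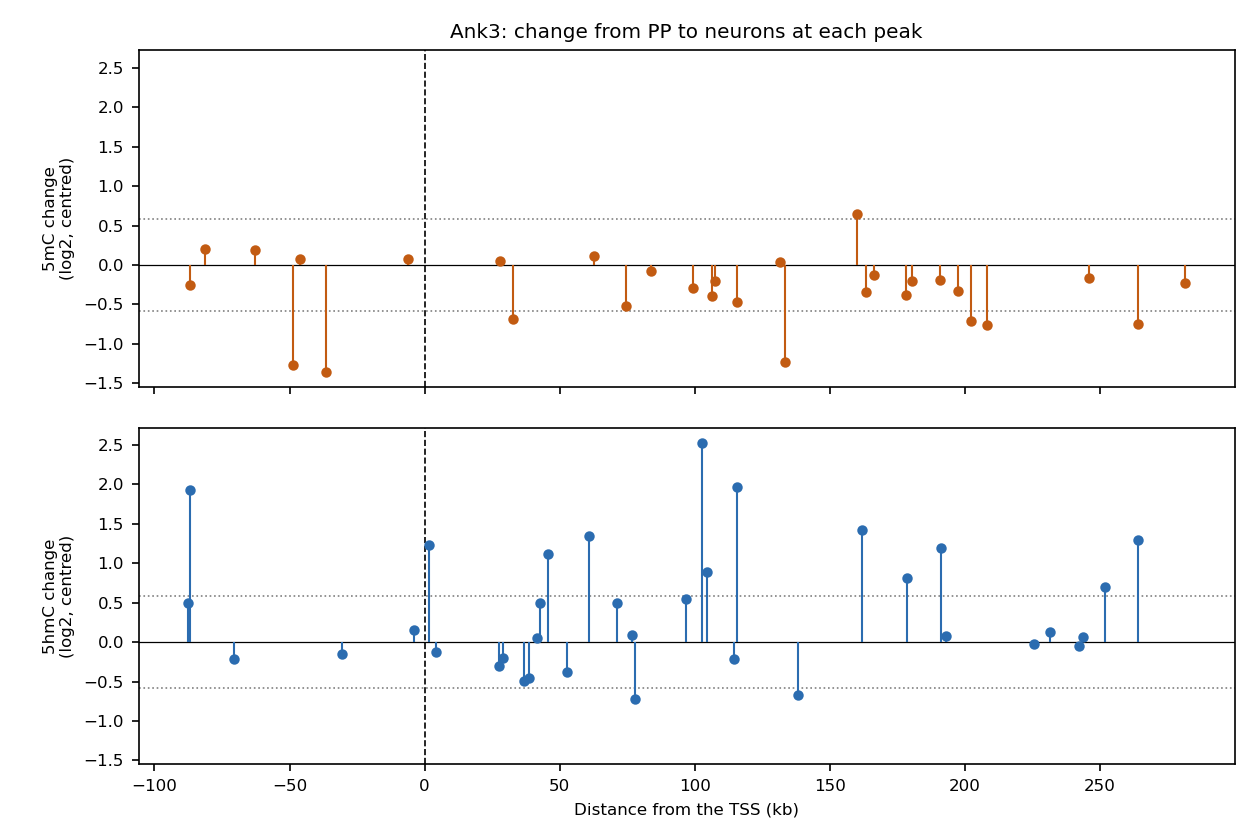
Centred log2 change from PP to neurons (vertical axis) at every Ank3 peak against its distance from the start in kb (horizontal axis, dashed line at the start), 5mC above and 5hmC below; dotted lines mark 1.5-fold. The 7 5mC peaks called lower and the 12 5hmC peaks called higher lie among uncalled peaks on both sides of the start, and the highest point is the 5hmC peak at 102500 bp (2.53).

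Where a 5mC and a 5hmC peak of a member shared at least 1 bp, their changes were read together. There were 8 such pairs, of which 3 lay at Ank3, 3 at Enc1, 1 at Stmn2 and 1 at Tubb3. In all 8, the centred change from PP to neurons was below 0 for 5mC and above 0 for 5hmC. Of the 6735 pairs in the tables, 51.5% had this combination. Both marks passed 1.5-fold in 5 of the 8 (18.8% of all pairs did): the Tubb3 pair, the 3 Enc1 pairs and the Ank3 pair at 264111 bp. That Ank3 pair had 5mC levels of 4.46, 4.85 and 3.54 in PP, DP and neurons and 5hmC levels of 3.93, 3.72 and 5.15. The other 3 pairs passed for 5hmC alone, with 5mC changes of -0.26, -0.47 and -0.58. The older symbols added 6 pairs, and 13 of the 14 then had the combination. The Ank2 pair at 13942 bp had it through the centring alone, since its 5hmC level was 4.36 in PP and 4.29 in neurons. None of the 6 passed 1.5-fold for both marks, so that the share that did was 5 of 14 (35.7%) rather than 5 of 8 (62.5%). The exception, at Ank2, changed by 0.27 for 5mC and -0.25 for 5hmC. Inside Ank3, under Ccdc6, 1 of 2 pairs had it, with a 5mC change of -1.17 and a 5hmC change of 2.77 at chr10:69986250-69986371.

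The overlap itself went with the calls. All 8 member 5hmC peaks that overlapped a 5mC peak were called higher, against 11 of the 41 (26.8%) that did not. Over the whole table these shares were 42.9% and 18.6%. For 5mC, 5 of the 8 overlapping member peaks were called lower and 7 of the other 47 (14.9%), against 24.3% and 8.29% over the whole table. Neighbouring peaks share a gene and cells, and the 8 pairs come from 4 genes.

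**Figure D3:**
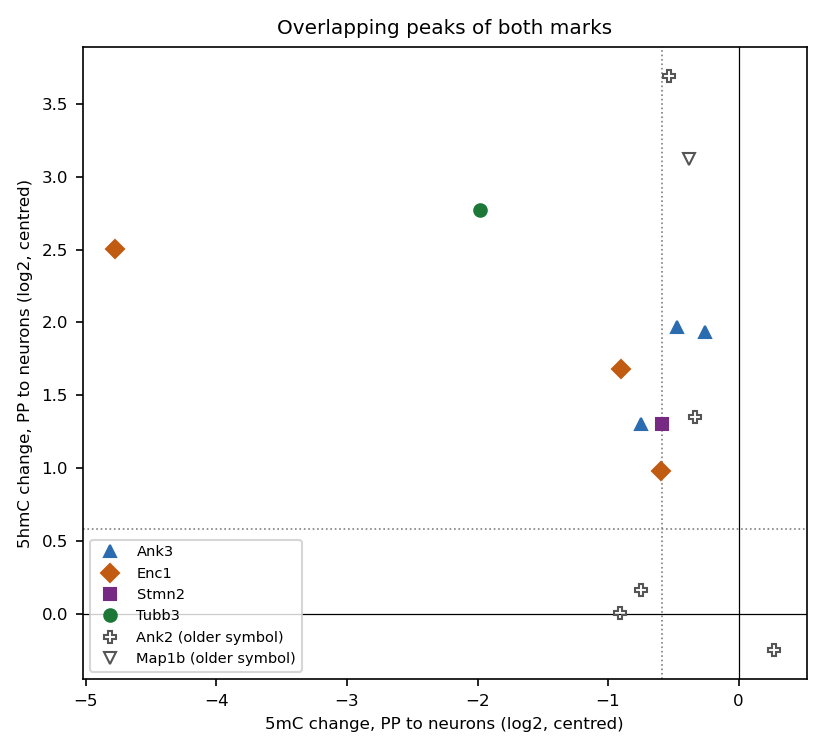
Centred log2 change from PP to neurons of 5mC (horizontal axis) and of 5hmC (vertical axis) at overlapping peaks, filled for the 8 pairs under the members' own symbols and open for the 6 under older symbols; dotted lines mark 1.5-fold lower 5mC and 1.5-fold higher 5hmC. The filled points all lie at lower 5mC and higher 5hmC, with Tubb3 at -1.98 and 2.77 and the lowest Enc1 point at -4.77 and 2.50, and 1 open point lies at higher 5mC and lower 5hmC.

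The tables also gave an expression value of the nearest gene in each cell type, from RNA sequencing of the same cell types in earlier work. The scale was not named and is not taken to be per length, so values are compared within a gene only. All 8 genes with a value were highest in neurons, which is a description, since they were chosen as genes of neurons. Over all 16005 genes, 30.2% were at least 1.5-fold higher in neurons than in PP and 31.4% at least 1.5-fold lower.

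Stmn2 had an expression of 123.9, 368.6 and 21956 in PP, DP and neurons (177-fold from PP to neurons). Ank3 had 482.2, 3219.3 and 33373.5 (69.2-fold), and Tubb3, the reporter gene of the sort, had 3814.4, 25259.3 and 105657.4 (27.7-fold). These 3 genes spanned the widest ranges. Dclk1 had 3287, 3759.7 and 28632.5 (8.71-fold), Map2 had 12120.6, 25513.7 and 95135.7 (7.85-fold), and Enc1 had 13262, 34831.5 and 60939.7 (4.6-fold). Ank2 had 11271.9, 8003.5 and 37935.8 (3.37-fold), and Map1b 89335, 83665 and 258525.2 (2.89-fold). Both of these genes were lower in DP, at 0.71 and 0.937 of the PP value.

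**Figure D4:**
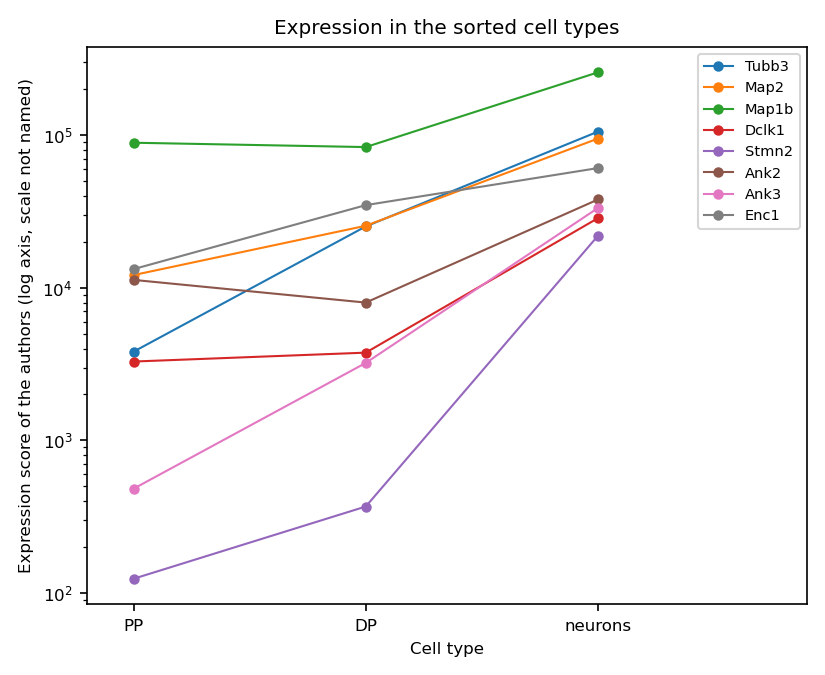
Expression value of the authors (log axis, scale not named) in PP, DP and neurons for the 8 genes with a value; each point is a single deposited value, with no error. All 8 lines are highest in neurons, from a 2.89-fold difference to PP at Map1b to 177-fold at Stmn2, and those of Ank2 and Map1b dip in DP.

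Expression changes and called peaks are set side by side here. From PP to neurons, 10.2% of all 5mC peaks were called lower and 22.1% of all 5hmC peaks higher. Stmn2, with the widest range, had 0 of 3 5mC peaks lower and 1 of 3 5hmC peaks higher (33.3%). Enc1, with the smallest range among the 6 genes but for Ank2, had 4 of 5 lower (80.0%) and 3 of 4 higher (75.0%). Dclk1, with an 8.71-fold range, had 0 of 2 and 0 of 1. With so few peaks per gene, these counts do not rank the genes. The steps differed between genes. Enc1 expression was 2.63-fold higher in DP than in PP and then 1.75-fold higher in neurons, and its 5hmC peak at 5487 bp gained 2.36 and then 0.09 on the log2 scale. Tubb3 expression was 6.62-fold and then 4.18-fold higher, while its upstream 5hmC peak gained 0.27 and then 2.44. At Ank3, expression was 6.68-fold and then 10.4-fold higher. In the first step 6 of its 35 5hmC peaks were called higher (17.1%, against 11.2% of all). In the second 8 were (22.9%, against 16.5%). Dclk1 changed 1.14-fold and then 7.62-fold with no peak called in either step. No relation across genes was computed, since 6 genes with 3 cell types each and pooled means allow none.

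Genes with expression over the 3 cell types like that of Tubb3 were sought by Pearson's correlation of log2 values. The 1502 candidates were higher in neurons than in PP by a minimum log2 ratio set from that of Tubb3. The choice thus already took its direction. The most alike were 6430571L13Rik, Ecel1, Col6a4, Scn3a and Zscan2. With 3 points per gene such a correlation is a description only.

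Other genes of the neuronal cytoskeleton were taken from a list of 74 tubulins, microtubule-associated proteins, motors, neurofilaments, spectrins, septins and their regulators. A peak was found for 66 of them, 8 under an older symbol. In expression, 53 of the 66 were at least 1.5-fold higher in neurons than in PP and 4 lower, with a median log2 ratio of 1.65. From PP to neurons, 39 of their 279 5mC peaks were called lower (14.0%, against 10.2% of all) and 9 higher (3.23%, against 5.0%). Of their 250 5hmC peaks, 67 were called higher (26.8%, against 22.1%) and 20 lower (8.0%, against 7.71%). These shares lay nearer to the background than those of the 6 genes above.

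The genes of the list with the most called peaks were Basp1, Gap43 and Cdk5r1, a choice made by the calls themselves and favouring genes with many peaks. The shares over all peaks were 10.2% lower for 5mC and 22.1% higher for 5hmC. Basp1, a membrane-bound growth cone protein, had 5 of 10 5mC peaks lower and 1 higher, and 4 of 8 5hmC peaks higher. Gap43, a related growth cone protein, had 4 of 16 5mC peaks lower, with 3 of 15 5hmC peaks higher and 3 lower, no more than the background for those higher. Cdk5r1 encodes p35, the neuronal activator of the kinase Cdk5, and had 3 of 6 5mC peaks lower and all 6 5hmC peaks higher.

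Markers with a listed expression value matched the labels of the sorted cell types. The 6 PP markers (such as Sox2 and Pax6) were all highest in PP, the 4 DP markers (such as Eomes) in DP and the 6 neuron markers (such as Dcx) in neurons. The DP list included Btg2 and the neuron list Tubb3, the reporter genes of the sort. Of 4 interneuron markers 3 were listed, and all 3 were highest in neurons. Of the endothelial markers (4 of 4 listed) 3 were highest in PP and 1, Kdr, in DP. The microglia markers (3 of 4) were all highest in PP. Among those of the oligodendrocyte lineage (3 of 3), 1 was highest in PP and 2 in DP. Interneuron markers thus moved with neurons, and their part in the changes above was not tested.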

How the data were processed

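MeDIP and hMeDIP sequencing of PP, DP and neurons gave 12 samples, 1 per cell type, mark and fraction, and the labels did not separate the replicates that the authors describe. The authors aligned reads to mm10 with BWA 0.7.8-r455 and called peaks with SICER 1.1. For each cell type they took the peaks found in all its replicates, merged them and left out those in repeats. Reads were normalized in DiffBind by TMM. The deposited levels are the log2 of the mean normalized reads of a peak in a cell type, with neither replicate values nor depth beside them, so no test, interval or SD was computed from them. The deposited expression score of the nearest gene and the distance to its start, annotated with HOMER 4.7, were used as given. Another 10 columns per table hold the authors' own fold changes and p-values, made from the replicates, and were left out as the authors' findings.

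Levels were subtracted, centred on the median of all peaks and called at 1.5-fold with pandas 2.3.3, after the steps were tested on simulated data. Peaks overlapped when they shared 1 bp or more. Named were all 9 genes, the peaks with the largest change, those past 1.5-fold and those nearest to the start, all overlapping pairs, and the 3 genes of the wider list with the most called peaks. The members, gene lists and limits were chosen with earlier results of these data known. Older symbols and gene bounds came from RefSeq (GRCm38.p6), as did the promoters. Exons, introns and the sequence under the peaks were not analysed here. Alternatives were no centring, a 2-fold minimum, higher levels only, peaks inside genes, repeated peaks counted once, leaving out Ank3, a larger overlap and, chosen after seeing the data, peaks under older symbols or within RefSeq bounds.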

Additional observations from a re-analysis of the deposited data

How the results depend on the processing

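Of 144 values recomputed under the alternatives, 99 stayed within the limits set (1.5 times for a count, 0.1 on the log2 scale for a median), 45 moved past them, and 0 of 42 medians changed sign. The shares over all peaks under each alternative were recomputed as well and stand in brackets below, marked "of all". The cause of the moves was not tested. A 2-fold minimum left 0 of 55 5mC peaks higher from PP to DP (0.659% of all) and 5 lower from DP to neurons (3.3% of all). From PP to neurons it left 5 lower (4.0% of all) and 0 higher (0.677% of all). Of the 49 5hmC peaks the 2-fold minimum left 3 higher in the first step (5.07% of all). In the second step it left 0 lower (1.19% of all) and 9 higher (8.03% of all). From PP to neurons it left 0 lower (1.24% of all), with 2 pairs of 8, against 8 by sign only. Without centring, 17 of 55 5mC peaks were lower from DP to neurons (15.5% of all, member median -0.30). From PP to neurons 0 were higher (2.12% of all, member median -0.38). Among the 30 5mC peaks with a highest level above the median, 0 were lower (2.2% of all such peaks) and 1 higher (2.06% of all) in the first step. In the second 3 were lower (5.55% of all). From PP to neurons 4 were lower (6.32% of all) and 0 higher (2.57% of all). Of 28 such 5hmC peaks 4 were higher in the first step (9.97% of all such peaks) and 0 lower in the second (4.6% of all, member median 0.30). From PP to neurons 1 was lower (5.47% of all, member median 0.68). Of 37 5hmC peaks inside genes 0 were lower from DP to neurons (6.48% of all such peaks), and the median from PP to neurons was 0.50. Without Ank3, 1 of 25 5mC peaks was higher in the first step (4.6% of all) and 4 lower in the second (9.36% of all). From PP to neurons 5 were lower (10.2% of all) and 0 higher (5.0% of all). Of 14 5hmC peaks without Ank3, 1 was higher in the first step (11.2% of all, member median 0.22) and 6 in the second (16.5% of all). From PP to neurons 7 were higher (22.1% of all, member median 0.29) and 0 lower (7.71% of all). With older symbols, 2 of 71 5mC peaks were higher from PP to neurons (5.0% of all). Of 66 5hmC peaks 1 was lower in the first step (4.68% of all) and 2 in the second (7.07% of all). Within RefSeq bounds more peaks entered. Of 86 5mC peaks 6 were higher in the first step (6.98%, against 3.64% of the 55 and 4.6% of all). In the second 18 were lower (20.9%, against 18.2% of the 55 and 9.36% of all). From PP to neurons 2 were higher (2.33%, against 1.82% of the 55 and 5.0% of all). Of 65 5hmC peaks 12 were higher in the first step (18.5%, against 14.3% of the 49 and 11.2% of all). In the second 2 were lower (3.08%, against 2.04% of the 49 and 7.07% of all). The median from PP to neurons was 0.23.

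No paired analysis was possible because the columns used hold 1 mean per cell type and carry no replicate number, and leaving out a replicate was not possible for the same reason. The levels used carry no depth or error of their own, which bears most on low levels, such as that of Enc1 5mC in neurons. Low levels in PP also underlie the largest 5hmC changes, at 2.83 normalized reads for Map1b and 3.38 for Ank2. Those of Tubb3, Enc1 and Ank3 started from 8.17, 8.27 and 8.98.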
